A study of Oryza sativa with 15 samples.

Results

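The distal ends of the short arms of rice chromosomes 11 and 12, positions 1 to 2500000 of each, carry a segmental duplication, so that many genes near the tip of chromosome 11 have a close copy in the same order near the tip of chromosome 12. The members described here are all SNP rows within those positions, chosen by position alone. They comprise 301 rows on chromosome 11 and 311 on chromosome 12 in the LR-RL table, 612 of its 62102 rows, and 298 and 297 rows in the YW-WY table, 595 of its 59107 rows. The rows fall in 120 loci of chromosome 11 and 116 of chromosome 12, counting a locus once if either table lists it.

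The counts come from RNA of hybrid endosperm collected 5 days after fertilization, with 20 to 30 endosperms pooled per library. The LR cross had the cytoplasmic male sterile japonica line Liuqianxin-A as mother and the fertile indica maintainer line Rongfeng-B as father, and the reverse cross RL had Rongfeng-A as mother and Liuqianxin-B as father. The YW cross had the male sterile japonica line Yu6-A as mother and the indica line Wufeng-B as father, and WY had Wufeng-A as mother and Yu6-B as father. All mothers carried a male sterility cytoplasm. There were 3 libraries each of LR and RL and 2 each of YW and WY, and the tables give 1 maternal and 1 paternal count per SNP and cross with the libraries pooled. The 5 libraries of inbred lines were not used here.

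Endosperm, the tissue that feeds the embryo of a cereal grain, receives 2 genomes from the mother and 1 from the father. An allele count without bias is therefore 66.7% maternal. An imprinted gene departs from that share in the same parental direction in both reciprocal crosses. A gene whose alleles differ between the parental lines instead departs towards the same line, japonica or indica, in both. Its departure is then maternal in the cross with that line as mother and paternal in the reverse cross. In a duplicated segment a short read can match both copies, and a difference between the copies can be read as a SNP. The tables give each SNP's locus and position. No genome build is given in the sources used here, and exons and untranslated regions were not separated.

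Over the whole tables the pooled reads came to between 29149713 in YW and 34433249 in RL, and the least read SNP of any cross had 11 reads. Loci that averaged 10 or more counts a library in each reciprocal cross were tested, which left 10864 loci of the LR-RL table and 11441 of the YW-WY table. A locus at the median of these had 67.1% maternal counts in LR and 63.8% in RL, and 75.1% in YW and 62.9% in WY, and the YW value lay above the dosage null. The labelled tissue was checked on marker genes. OsFIE1, a polycomb gene known for maternal expression in rice endosperm, had a maternal share of 99.7% in LR and 99.5% in RL, and 98.9% in YW and 98.5% in WY. Glutelin loci, which encode seed storage proteins, had 2756839 counts in LR and 5752744 in WY. The green-tissue gene rbcS at LOC_Os12g17600 had 3036 counts in LR and 1060 in RL, 46.7% and 78.3% of them maternal. OSH1 of the embryo and OsMADS29 of the nucellus carried no SNP among the rows used here, so tissue of either kind was not checked.

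The ends held few SNPs for the number of loci read. In LR-RL the chromosome 11 end had 2.81 SNPs per locus and the chromosome 12 end 3.08, against 9.04 and 5.75 in the flanks, the next 2.5 Mb of the same chromosomes up to position 5000000, and 5.05 over the whole table. In YW-WY the ends had 2.92 and 2.75 SNPs per locus, the flanks 7.24 and 5.38, and all of YW-WY had 4.78. The number of loci itself was not low, with 107 and 101 loci at the ends and 75 and 96 in the flanks of LR-RL, and 102 and 108 against 85 and 99 in YW-WY. Per megabase, LR-RL had 120 and 124 SNPs at the ends and 271 and 221 in the flanks.

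Set beside the other windows of 2.5 Mb along the 12 chromosomes that held at least 50 loci, a minimum chosen after the values were seen, the chromosome 11 end ranked 1 from the lowest of 119 in SNPs per locus in LR-RL and the chromosome 12 end ranked 5. In YW-WY they ranked 4 and 3 of 115. These ranks are a description, since SNPs of a window share the pooled libraries. The median locus had 2 SNPs at either end in both tables and 3 over the whole tables. Loci with a single SNP made up 31.8% of the chromosome 11 end and 35.6% of the chromosome 12 end in LR-RL, against 20.7% over the table, and 27.5% and 39.8% in YW-WY, against 22.4%. Loci with 10 or more SNPs made up 3.74% and 2.97% of the ends in LR-RL, against 10.7%, and 4.90% and 2.78% in YW-WY, against 9.88%. Those at the chromosome 12 end were LOC_Os12g03800 with 26 SNPs in LR-RL and 16 in YW-WY, LOC_Os12g05060 with 24 in each table, LOC_Os12g04204 with 10 in LR-RL and LOC_Os12g04490 with 11 in YW-WY, all annotated only as expressed protein.

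The step at the limit was not sharp. In bins of 250 kb, the first bins beyond the limit on chromosome 12 had 1.5 and 2 SNPs per locus in LR-RL, from 2 and 5 loci, against 1.88 to 4.21 in the bins inside it, and the bin with most SNPs per locus on that chromosome, 9.13, had its centre 1125 kb beyond. On chromosome 11 the flank was itself unusual: it ranked 117 of 119 windows in SNPs per locus, with 15.9, 14.3 and 17.4 SNPs per locus in bins centred 1625, 1875 and 2375 kb beyond the limit, from 9, 9 and 10 loci. The last SNP inside the limit on chromosome 11 lay in LOC_Os11g05494 at 2481983, with maternal to paternal counts of 12 to 5 in LR and 21 to 20 in RL, and the first one outside lay in LOC_Os11g05540 at 2500577, with 8 to 4 and 17 to 16. No locus lay across the limit.

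**Figure D1:**
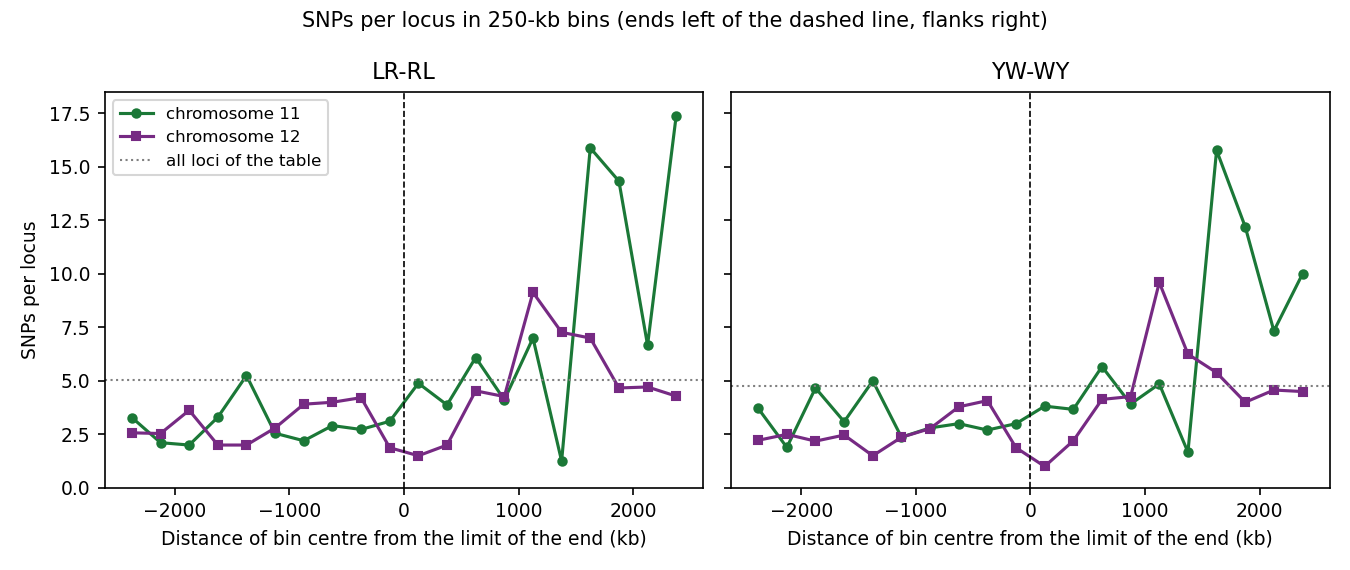
SNPs per locus (y axis) in bins of 250 kb along chromosomes 11 (circles) and 12 (squares), plotted by the distance of the bin centre from the limit of the end in kb (x axis), for LR-RL on the left and YW-WY on the right. Most bins left of the dashed line lie under the dotted mean of the whole table (5.05 and 4.78), and the chromosome 11 flank climbs to 17.4 in LR-RL.

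Transitions, purine to purine or pyrimidine to pyrimidine changes, made up 66.1% of SNPs at the chromosome 11 end and 69.1% at the chromosome 12 end in LR-RL, close to the 66.6% of the whole table. Of the positions at the chromosome 11 end of LR-RL 82.0% were also listed in YW-WY, and of those at the chromosome 12 end 82.3%, against 76.2% of all LR-RL positions.

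Reads per SNP were lower at the chromosome 12 end than at the chromosome 11 end in all 4 crosses. The median SNP had 71 reads at the chromosome 11 end and 53 at the chromosome 12 end in LR, against 75 over the table, and 60 and 51 in RL, against 70. The corresponding medians were 84.5 and 65 reads in YW, against 94, and 50 and 41 in WY, against 58. The chromosome 12 end ranked 5 of 119 windows from the lowest in median reads per SNP in LR-RL and 8 of 115 in YW-WY.

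The maternal share over the summed reads of the chromosome 11 end was 66.3% in LR and 64.0% in RL, and that of the chromosome 12 end 69.6% and 54.5%. In YW and WY the chromosome 11 end had 71.6% and 63.6%, and the chromosome 12 end 74.6% and 51.7%. Read as the share of the japonica allele averaged over both directions of a cross, for which no bias is 50%, these are 51.2% at the chromosome 11 end and 57.6% at the chromosome 12 end in LR-RL, and 54.0% and 61.4% in YW-WY. By these summed reads the chromosome 12 end was the more japonica of the pair in both sets. Its flank was as high, at 60.7% and 62.6%, while the chromosome 11 flank had 48.4% and 57.7%, and the whole tables had 52.4% and 58.4%.

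A few loci carried much of these sums. LOC_Os12g05050, annotated stem-specific protein TSJT1, held 36.8% of the reads of the chromosome 12 end in LR-RL and 19.3% in YW-WY, all at 1 SNP. The most read loci at the chromosome 11 end, ubiquitin-like protein 5 at LOC_Os11g04880 and the ribosomal protein at LOC_Os11g03400, held 17.4% each, in LR-RL and in YW-WY. Taken from the median tested locus of each cross, the japonica share at the chromosome 12 end was 55.1% in LR-RL and 57.1% in YW-WY, and at the chromosome 11 end 52.8% and 55.9%. The first 2 Mb alone gave 53.2% and 57.9% for chromosome 12, against 51.5% and 54.5% for chromosome 11, a smaller gap in both sets.

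Per locus, the strain bias was taken as the log2 of the japonica over the indica allele and the parental bias as the log2 of the maternal over the paternal allele, both relative to the dosage of 2 to 1 and averaged over the crosses of a set. The median strain bias was 0.21 at the chromosome 11 end and 0.30 at the chromosome 12 end in LR-RL, against 0.10 over all tested loci, and 0.40 and 0.49 in YW-WY, against 0.41. The LR-RL values ranked 109 and 118 of 119 windows from the lowest, and the YW-WY values 60 and 96 of 115. The median parental bias was -0.076 and -0.079 at the ends in LR-RL, against -0.072 over all tested loci, and 0.086 and 0.17 in YW-WY, against 0.15.

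Calls were made from an exact binomial test of each cross against the dosage null, taking the larger p of the reciprocal pair, with Benjamini-Hochberg adjustment across every tested locus of the table and a threshold of 0.05. They cover counting error only, because the libraries of a cross are pooled, and a read over 2 SNPs of a locus counts at both. Strong calls lay, in addition, 5 times or more from the null in each cross, at maternal shares of 90.9% and above or 28.6% and below. A joint fit of the 4 crosses with edgeR's quasi-likelihood test took the LR-RL and YW-WY sets as replicates, over 9752 loci tested in both. Bulk allele counts cannot tell a bias within each cell from one that some cells of the endosperm carry.

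Parental calls were a small part of the tested loci at the ends, as over all loci. The ends had fewer SNPs per locus and fewer reads per SNP than the whole tables. What this did to the number of calls was not tested. Among the 175 tested loci in LR-RL 1 was called maternal (0.571%; 2.03% over all tested loci) and 7 paternal (4%; 6.88% over all). Among the 191 tested loci in YW-WY 9 were called maternal (4.71%; 5.99% over all) and 4 paternal (2.09%; 3.73% over all). Strong parental calls numbered 0 maternal (0%; 0.847% over all) and 1 paternal (0.571%; 1.63% over all) in LR-RL. In YW-WY there were 2 strong maternal (1.05%; 0.97% over all) and 1 strong paternal (0.524%; 0.612% over all). In both sets together, 1 locus was maternal in each (0.625% of the 160 loci tested in both; 1.49% over all) and 3 were paternal in each (1.88%; 3.52% over all). These 4 loci are described next, each beside its copy on the other chromosome.

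Both members of a pair annotated as heavy-metal-associated domain-containing proteins, a domain that binds metal ions in copper chaperones and metal-transporting ATPases, were paternal in both sets. The chromosome 12 member, LOC_Os12g05040 (SNPs from 2194747 to 2196880), had 285 maternal and 3284 paternal counts in LR, a maternal share of 7.99% (95% Wilson interval 7.14 to 8.92). In RL it had 189 maternal and 4731 paternal counts, a share of 3.84%. The share was 26.6% in YW, from 6653 counts, and 6.11% in WY, from 4188 counts. All 4 crosses lay far on the paternal side, and this was the only locus of the ends with a strong parental call in both sets.

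The paternal bias of LOC_Os12g05040 was carried by each of its 7 SNPs. Their maternal shares ran between 5.26% and 9.82% in LR, between 2.99% and 5.18% in RL, between 20.5% and 32.7% in YW, and between 0% (0 of 64 reads, compatible with a share as high as 4.69%) and 14.7% in WY. In the joint fit its parental bias was -4.39 (SE 0.40, adjusted p 0.0029 by edgeR's quasi-likelihood test), and its strain bias of 0.90 did not pass (adjusted p 0.143).

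The chromosome 11 member, LOC_Os11g05010, had only 2 SNPs, and they did not behave alike. Its summed maternal share was 45.9% in LR and 3.98% in RL, and 53.7% in YW and 4.71% in WY, paternal in all 4 crosses but much less so when the mother was japonica. At position 2170354 the maternal share was 13.3% in LR and 7.01% in RL, and 30.3% in YW and 9.89% in WY, the pattern of the chromosome 12 member. At position 2171113 it was 76.9% in LR and 1.49% in RL, and 85.4% in YW and 3.38% in WY, a japonica pattern in which the allele of the japonica line prevailed from either parent. The joint fit gave the summed counts both a parental bias of -3.24 (SE 0.20, adjusted p 0.0008) and a strain bias of 2.23 (SE 0.19, adjusted p 0.0007) by edgeR's quasi-likelihood test. Taken from its most read SNP alone, LOC_Os11g05010 had no paternal call in either set.

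The pair annotated RPABC1, a subunit that the nuclear RNA polymerases I, II and III share, had its chromosome 12 member maternal in both sets and its chromosome 11 member uncalled. LOC_Os12g04510 had maternal shares of 76.6% (95% interval 73.0 to 79.8) in LR and 89.9% in RL, and 73.2% in YW and 84.9% in WY. LOC_Os11g04730 had 62.3%, 55.0%, 62.3% and 53.0%, and the intervals of the 2 members were apart in all 4 crosses. This pair lies outside the rule that chose the named loci and was added after its values were seen.

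The 3 SNPs of LOC_Os12g04510 again differed from each other. At 1920624 the share was 99.4% in LR, 100% in RL (116 of 116 reads), 93.8% in YW and 100% in WY (80 of 80 reads). At 1920176, the most read, it was 71.6% in LR and 85.9% in RL, and 74.4% in YW and 79.0% in WY. At 1920428 it was 50.7% in LR and 49.6% in YW, under the null, against 87.1% in RL and 100% in WY (14 of 14 reads). The joint parental bias was 1.20 (SE 0.22, adjusted p 0.0301 by edgeR's quasi-likelihood test). The adjusted p was 0.129 by edgeR without YW and 0.0753 with the median ratio of each cross as the offset, so the call depends on both choices. Of the calls per set, that of LR-RL ended on the most read SNP alone (parental bias 0.96, against 1.42 over all SNPs), and that of YW-WY ended with the median ratio as the null (0.79, against 0.96).

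**Figure D2:**
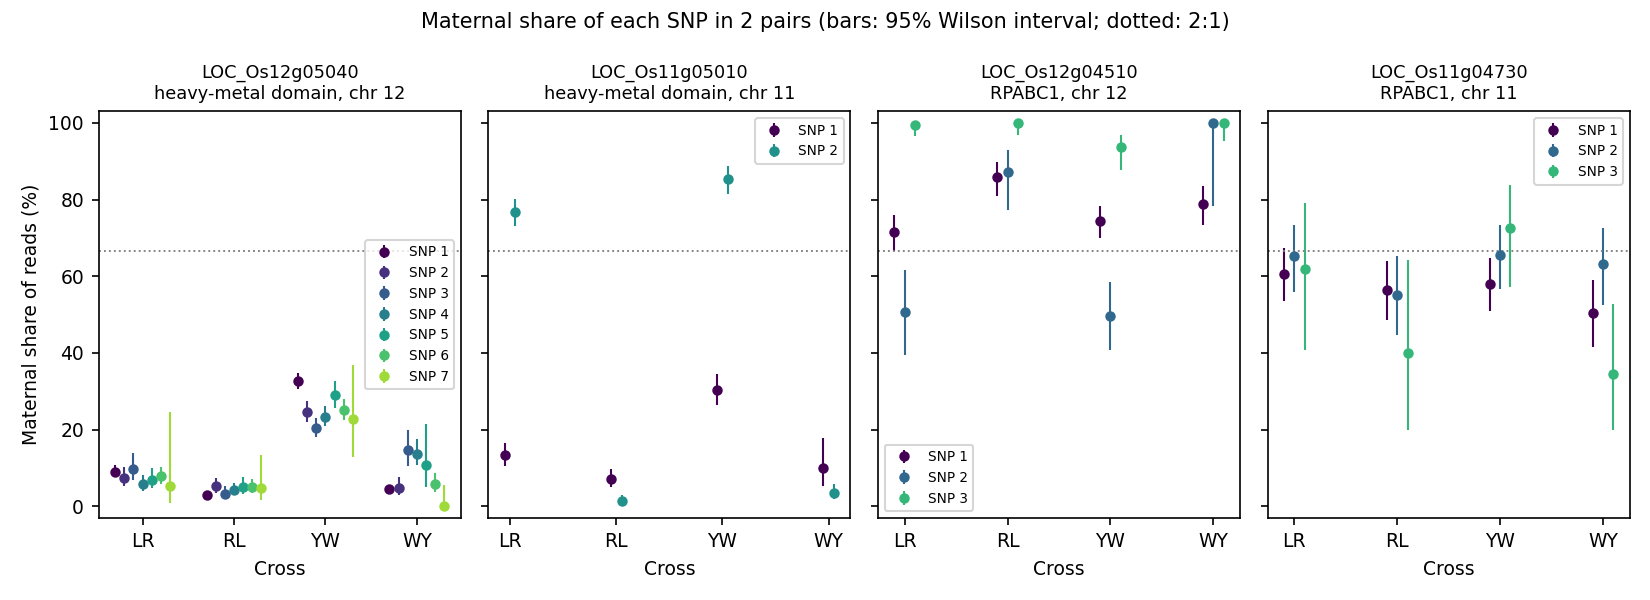
Maternal share of reads in percent (y axis) at each SNP of 4 loci in the crosses LR, RL, YW and WY (x axis), with 95% Wilson intervals as bars and the dosage null of 66.7% as a dotted line. All 7 SNPs of LOC_Os12g05040 lie under 33%, whereas the SNPs of LOC_Os11g05010 part in LR (13.3% and 76.9%) and YW (30.3% and 85.4%), and those of LOC_Os12g04510 part in LR (50.7% to 99.4%).

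The remaining locus paternal in both sets, LOC_Os11g04370, encodes ribosomal protein L24 of the large subunit and was shifted modestly. Its maternal shares were 53.5% in LR and 53.1% in RL, and 56.4% in YW and 57.4% in WY, alike in all 4 crosses. Its 3 SNPs lay between 45.7% and 60.4% in LR-RL. Its copy LOC_Os12g04160 had 74.0%, 64.6%, 74.9% and 58.8%, with no parental call. The joint parental bias of LOC_Os11g04370 was -0.70 (SE 0.17), which did not pass by edgeR's quasi-likelihood test (adjusted p 0.0946), but passed with 1 strain term per set (adjusted p 0.0149, edgeR) and by DESeq2 (adjusted p 0.00251).

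The only strong maternal calls came from YW-WY and rest on few reads. LTPL14 at LOC_Os12g02340, of the lipid transfer and protease inhibitor family of small secreted proteins, had a maternal share of 98.1% in YW from 52 counts and 95.1% in WY from 247 counts, over 3 SNPs. In WY these SNPs had 99.2%, 100% and, at 762249, 78.4% (40 maternal of 51 reads). A precursor of phytosulfokines, sulfated peptide hormones of plants, at LOC_Os12g05260 had 50 maternal and 0 paternal reads in YW and 20 and 0 in WY at 1 SNP, and a count of 0 allows a paternal share of up to 6% in YW and 15% in WY. Neither locus was tested in LR-RL, and carry-over of maternal tissue was not tested for them. LOC_Os12g02690, an expressed protein chosen for mention after its values were seen, had 93.6% in YW and 89.7% in WY with a maternal call, and 81.8% in LR and 80.6% in RL without one.

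The joint fit called 1 maternal (0.625%; 1.52% over all) and 4 paternal loci (2.5%; 3.6% over all) among 160 at the ends. At an unadjusted p under 0.05 edgeR had 5 maternal and 16 paternal loci there, against 345 and 751 of the 9752 over all. Besides those above, the paternal calls were LTPL6 at LOC_Os11g02379 (-1.07, adjusted p 0.0483) and LOC_Os11g02720 (-1.32, adjusted p 0.031), each of which also had a japonica bias in the same edgeR fit (1.28 and 1.34). In YW-WY LTPL6 was called japonica, not paternal, with maternal shares of 74.5% in YW, above the null, and 27.5% in WY. Its SNPs there ranged over 53.9 points in YW and 64.5 in WY. The alternative fits that follow were counted at the ends only. Without the YW cross the joint fit called 0 maternal and 2 paternal loci, with 1 strain term per set 2 and 9, and DESeq2 called 7 paternal.

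Strain calls were the commonest departure at the ends, as over all loci. In LR-RL 35 loci were called japonica (20.0%; 20.2% over all tested loci) and 20 indica (11.4%; 11.1% over all). Of the YW-WY loci 52 were japonica (27.2%; 32.4% over all) and 12 indica (6.28%; 5.24% over all). Strong calls numbered 9 japonica (5.14%; 3.93% over all) and 5 indica (2.86%; 1.64% over all) in LR-RL, and 8 japonica (4.19%; 7.98% over all) and 5 indica (2.62%; 1.66% over all) in YW-WY. Among the 160 loci tested in both sets, 23 were japonica in both (14.4%; 16.3% over all), 9 were indica in both (5.62%; 3.8% over all) and 0 changed sides (0.636% over all). The LR-RL japonica and indica shares lay near those of all loci, and the YW-WY japonica share lay below.

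The YW-WY calls depended on the null. With the null set at each cross's own median ratio, YW-WY had 25 japonica, 20 indica, 4 maternal and 7 paternal calls at the ends. Shares over all loci were not counted for that null or for the alternative fits below. Whether the shift is particular to the ends was therefore not tested. By chromosome, 16 of 93 tested loci were japonica and 13 indica at the chromosome 11 end of LR-RL, against 19 and 7 of 82 at the chromosome 12 end, and 24 and 6 of 95 against 28 and 6 of 96 in YW-WY. The difference between the chromosomes was not tested. In the joint fit 26 of the 160 loci were japonica (16.2%; 12.7% over all) and 8 indica (5%; 3.91% over all) by edgeR's quasi-likelihood test. Without YW that fit called 16 japonica, and with 1 strain term per set 46 japonica and 14 indica.

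**Figure D3:**
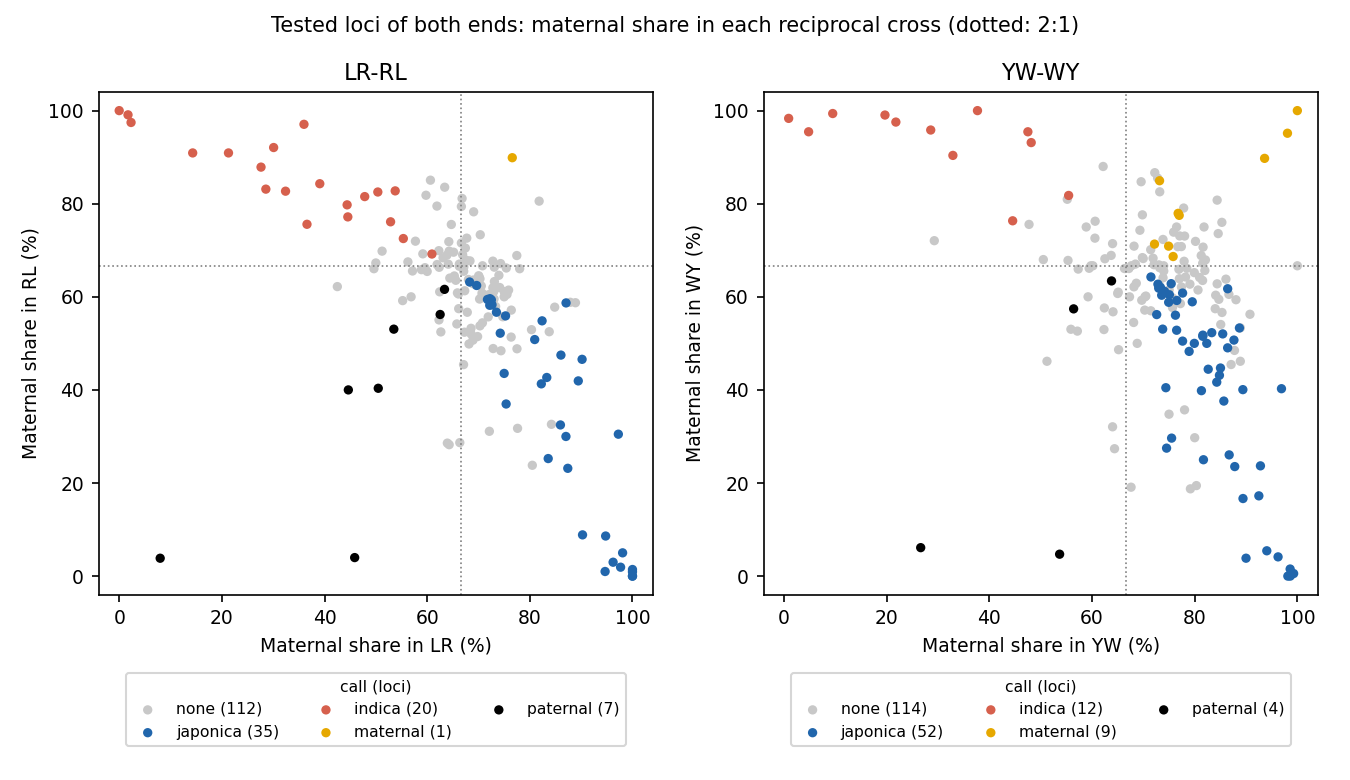
Maternal share in percent in the cross with the japonica mother (x axis; LR, YW) against the share in its reverse (y axis; RL, WY) for each tested locus of both ends, coloured by call, with dotted lines at 66.7%. Strain calls spread along the falling diagonal, 35 japonica and 20 indica in LR-RL, and the black point at the lower left of each panel is LOC_Os12g05040 (7.99% and 3.84%; 26.6% and 6.11%).

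At the chromosome 11 end, the GRAS family transcription regulator LOC_Os11g04570 was almost wholly japonica in both sets. It had 183 maternal and 0 paternal counts in LR and 5 and 347 in RL, and its maternal share was 99.3% in YW and 0.548% in WY. Its joint strain bias was 7.13 (SE 0.45, adjusted p 0.0002 by edgeR's quasi-likelihood test). TAP46 at LOC_Os11g04520, a regulatory subunit of PP2A-type phosphatases, followed with maternal shares of 94.8% in LR and 8.61% in RL, and 94.0% in YW and 5.44% in WY (joint strain bias 3.90, SE 0.26). LOC_Os11g01280, an expressed protein, had 87.4%, 23.2%, 92.8% and 23.7% (2.47, SE 0.22). The calmodulin-like calcium-binding protein LOC_Os11g04560 had 96.2% in LR and 2.99% in RL, from 53 and 67 counts, and was tested in that set only.

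Indica-biased loci at that end included a cell wall enzyme and an inhibitor whose SNPs neighbour each other. An alpha-N-arabinofuranosidase, which trims arabinose from wall polysaccharides, at LOC_Os11g03734 had maternal shares of 1.72% in LR and 99.1% in RL, and 9.48% in YW and 99.4% in WY (joint strain bias -5.69, SE 0.46). The neighbouring pectinesterase inhibitor domain protein LOC_Os11g03740 had 0 of 95 counts maternal in LR and 150 of 150 in RL, and was tested in LR-RL only. A hydrolase of the alpha/beta fold family at LOC_Os11g02660 had 21.3%, 90.9%, 32.9% and 90.4% (-2.36, SE 0.25).

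At the chromosome 12 end, apart from an F-box gene described with its copy, 3 loci were read almost only from the japonica allele in both sets. LOC_Os12g01250, annotated csAtPR5, had a maternal share of 100% in LR (97 of 97 counts), 0% in RL (0 of 49), 98.6% in YW and 0% in WY (0 of 83). The retrotransposon protein LOC_Os12g04880 had 100% in LR (123 of 123), 0% in RL (0 of 93), 98.1% in YW and 0% in WY (0 of 81). LOC_Os12g03800 had 97.7%, 1.91%, 98.6% and 1.52%, summed over 26 SNPs in LR-RL and 16 in YW-WY (joint strain bias 5.79, SE 0.25). The Deg protease homologue OsDegp13 at LOC_Os12g04740 had 98.1% in LR and 5.00% in RL and had too few counts in WY to be tested in the other set.

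Besides LOC_Os12g01680, described with its copy, the strongly indica loci of the chromosome 12 end were LOC_Os12g03380, an expressed protein with maternal shares of 2.31% in LR and 97.5% in RL, and 19.7% in YW and 99.0% in WY, and the mitochondrial glycoprotein LOC_Os12g04210 with 14.3%, 90.9%, 21.8% and 97.5%. By the rule that named the loci, LOC_Os12g04210 and the lipid transfer family member LTPL23 at LOC_Os12g02290 fell outside the limit of 8 per end. LTPL23 was japonica in YW-WY, with 92.5% in YW and 17.2% in WY from 40 and 29 counts.

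The strain effect differed between the sets at 3 of the 160 loci (1.88%; 5.18% over all) by the contrast of the sets in edgeR's fit. LTPL31 at LOC_Os11g03870 had maternal shares of 69.1% in LR and 78.3% in RL, but 4.78% in YW and 95.5% in WY. The expressed protein LOC_Os12g04490 was wholly japonica in LR-RL, with 100% in LR (191 of 191 counts) and 0.929% in RL, but had 75.5% in YW and 29.6% in WY. In YW-WY the SNPs of LOC_Os12g04490 differed from each other. The third is LOC_Os12g01680, described below with its copy. Each set had 1 reciprocal pair of pooled crosses, so the contrast does not cover spread within a set.

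Among the most read loci, several were called japonica in both sets by counting error, with biases of unlike size. The TSJT1 locus LOC_Os12g05050 had maternal shares of 72.5% in LR and 59.4% in RL, and 85.5% in YW and 52.0% in WY, and its joint strain bias of 0.82 did not pass by edgeR's quasi-likelihood test (adjusted p 0.0654). A ribosomal protein L24 locus at LOC_Os12g05430 had 82.2%, 41.3%, 85.7% and 37.6% (joint strain bias 1.51, SE 0.17, adjusted p 0.0018 by edgeR's quasi-likelihood test). At the chromosome 11 end, ribosomal protein L26-1 at LOC_Os11g05370 had 68.3%, 63.2%, 71.5% and 64.3%, with a joint strain bias of 0.20 that did not pass (adjusted p 0.415, edgeR). That last call ended in both sets with the median ratio of the cross as the null, where its bias was 0.057 in LR-RL and turned to -0.17 in YW-WY. The ribosomal protein locus LOC_Os11g03400 was japonica in both sets too, with a joint strain bias of 0.33 that did not pass (adjusted p 0.225, edgeR). Its YW-WY call ended with the median ratio as the null (strain bias 0.017, against 0.43). The locus with most SNPs at that end, the PHD-finger protein LOC_Os11g05130, had 72.2%, 58.2%, 76.5% and 59.2% over 12 SNPs in LR-RL and 13 in YW-WY.

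To set copies side by side, loci of the chromosome 11 end were paired with loci of the chromosome 12 end that carry the same annotation text, family member numbers such as those of OsFBX and LTPL aside, and lie in the same order, since no protein sequences were used here. From 88 and 85 loci with an informative annotation, 40 pairs resulted, their first SNPs at most 117760 bp apart in distance from the chromosome tip. Both members were tested in 25 pairs in LR-RL and 30 in YW-WY. Reads can pass between the members of a pair, so their counts are not independent.

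The strain bias of each member was set beside that of its copy. The members leaned to opposite lines in 14 of 25 pairs in LR-RL and 13 of 30 in YW-WY, and the median absolute difference between them was 0.67 and 0.84 on the log2 scale. Spearman's rho between the members' strain biases was -0.24 in LR-RL and 0.11 in YW-WY, across pairs that share the same pooled libraries. The chromosome 12 member was the more japonica in 8 of 25 and 10 of 30 pairs, the reverse of the order of the ends over summed reads. The 95% intervals of the members were apart in both crosses in 9 pairs of LR-RL and 6 of YW-WY, and 2 and 1 pairs had opposite strain calls. No such counts were made for loci that are not copies, and whether any is particular to the pairs was not tested.

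The widest gaps in LR-RL were of a strongly japonica member beside one with no call in that set. The chromosome 12 copy of the GRAS regulator, LOC_Os12g04370, had maternal shares of 74.7% in LR and 55.7% in RL, and 85.0% in YW and 44.7% in WY, a strain bias of 0.61 and 1.40 in the sets, beside 7.25 and 7.03 for LOC_Os11g04570. The chromosome 12 copy of TAP46, LOC_Os12g04290, had 68.5%, 53.2%, 81.6% and 51.8%, a strain bias of 0.47 and 1.02 beside 3.75 and 4.01. Among F-box genes, which select targets of ubiquitin ligases, the order was turned. OsFBX436 at LOC_Os12g03440 had 94.7% in LR and 0.99% in RL, and 96.2% in YW and 4.13% in WY at its 1 SNP, while OsFBX395 at LOC_Os11g03680 had 67.7%, 72.6%, 76.8% and 77.9%. In YW-WY LOC_Os12g04370 and LOC_Os12g04290 were called japonica too, and LOC_Os11g03680 maternal.

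Opposite strain calls were seen for ribosomal protein L10. LOC_Os11g01420 was indica in both sets, with maternal shares of 44.4% in LR and 79.8% in RL, and 44.5% in YW and 76.3% in WY at 1 SNP. LOC_Os12g01430 had 72.6%, 58.3%, 75.0% and 61.5% and was japonica in LR-RL, with no call in YW-WY. Their intervals were apart in all 4 crosses. That of LOC_Os12g01430 was close to the threshold (adjusted p 0.0404, exact binomial test) and ended with the median ratio as the null.

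A pair annotated macrophage migration inhibitory factor, tautomerases named for their animal relatives, also parted. LOC_Os12g01680 was indica, with 28.6% in LR and 83.1% in RL, and 0.893% in YW and 98.3% in WY, from 60 to 112 counts a cross. LOC_Os11g01600 had 67.3%, 52.4%, 72.6% and 56.2% from 1135 to 2746 counts, japonica in YW-WY. In LR-RL the chromosome 12 member had 2 SNPs that disagreed, at 412973 with 81.5% in LR and 53.3% in RL and at 413043 with 6.25% and 100%. Only 413043 was listed in YW-WY, so that the shares given for that set are those of 413043, and at that position both sets were strongly indica.

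Pyruvate kinase, the last enzyme of glycolysis, had an indica call at LOC_Os11g05110 (60.9% in LR and 69.2% in RL) and a japonica call at LOC_Os12g05110 (71.7% and 59.4%) in LR-RL. In YW-WY neither was called, with 77.9% and 67.6% at LOC_Os11g05110 and 78.2% and 64.3% at LOC_Os12g05110.

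Of the well-read pairs described with the parental calls, the heavy-metal-associated pair differed in strain bias by 1.61 in LR-RL and 1.02 in YW-WY, chromosome 11 minus chromosome 12. The ribosomal protein L24 pair differed by -0.31 and -0.56. The well-read pairs not described above had absolute differences in strain bias of at most 0.45. The acidic ribosomal protein P0 had 65.8%, 54.2%, 73.8% and 53.1% at LOC_Os11g04070 and 67.1%, 66.4%, 73.3% and 62.0% at LOC_Os12g03880 in LR, RL, YW and WY, with intervals apart in RL and WY alone and a japonica call for both in YW-WY. Ubiquitin-like protein 5 had 66.9% in LR and 69.0% in RL at LOC_Os11g04880 and 61.9% and 66.9% at LOC_Os12g04924, with no call for either in that set. In YW-WY LOC_Os11g04880 was called maternal, with 75.8% in YW and 68.7% in WY, a call that ended with the median ratio as the null. Vacuolar-sorting receptors, which carry storage proteins to the vacuole, had 69.0%, 63.6%, 72.8% and 62.7% at LOC_Os11g02464 and 75.3%, 55.9%, 81.0% and 64.2% at LOC_Os12g02390, with intervals apart in YW. Of that pair LOC_Os12g02390 was called japonica in LR-RL and LOC_Os11g02464 in YW-WY. The WD repeat pairs LOC_Os11g03794 with LOC_Os12g03540 and LOC_Os11g03990 with LOC_Os12g03822 had absolute differences in strain bias of at most 0.23, and the intervals of the first were apart in LR. Both chromosome 11 members were called japonica in YW-WY.

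**Figure D4:**
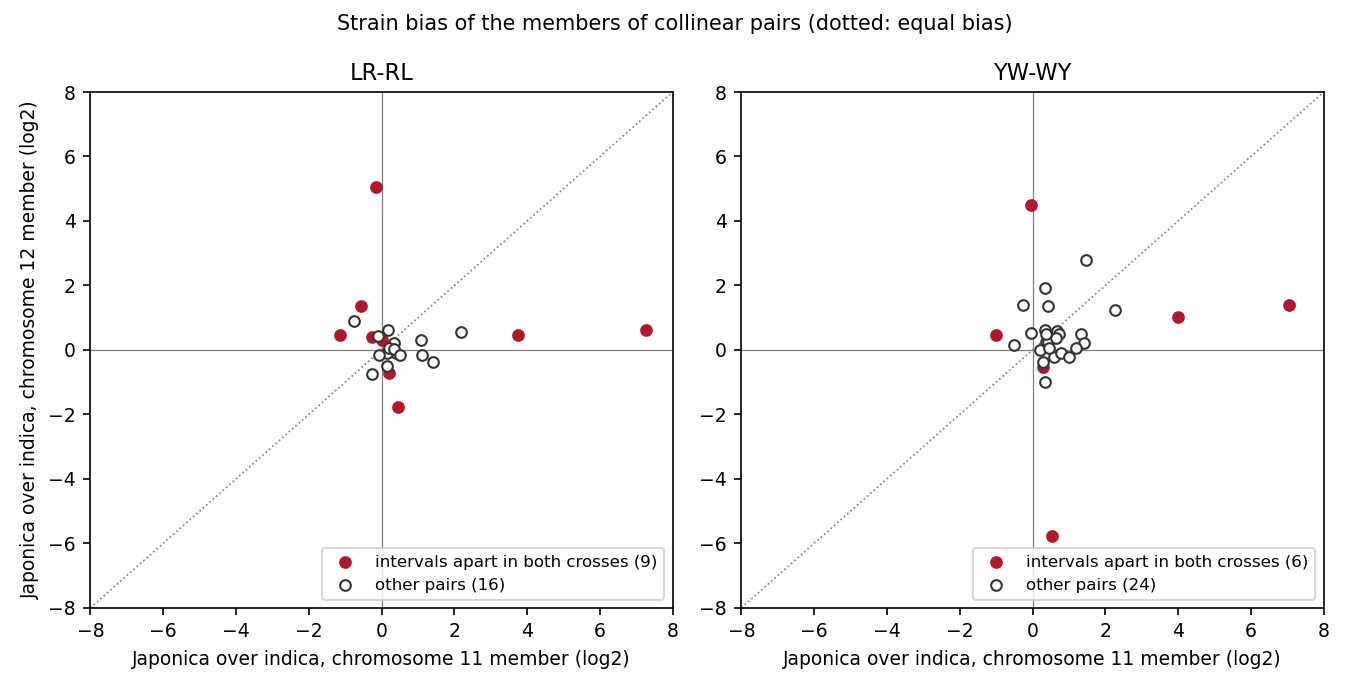
Strain bias (log2 of japonica over indica) of the chromosome 11 member (x axis) against the chromosome 12 member (y axis) of each collinear pair tested in LR-RL (25 pairs, left) and YW-WY (30 pairs, right), with the dotted line at equal bias. Filled points, 9 and 6 pairs, have 95% intervals apart in both crosses, and the points furthest from the line are the GRAS pair in LR-RL (7.25 and 0.61) and the macrophage migration inhibitory factor pair in YW-WY (0.52 and -5.76).

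Over all tested loci 20.2% were japonica, 11.1% indica, 2.03% maternal and 6.88% paternal in LR-RL, and 32.4%, 5.24%, 5.99% and 3.73% in YW-WY, and no class was tested against those shares. By annotation, the ends held 9 ribosomal protein loci in either table, all tested, of which 4 were japonica, 1 indica and 1 paternal in LR-RL, and 6 japonica, 1 indica and 1 paternal in YW-WY. Of 6 lipid transfer loci, 3 were tested in LR-RL with 1 japonica call, and 6 in YW-WY with 2 japonica, 1 indica and 1 maternal call. Of 6 kinase loci, 5 were tested in LR-RL with 1 indica and 1 paternal call, and 6 in YW-WY with 1 japonica call. The 3 transposon loci had 2 japonica calls among 3 tested in LR-RL and 1 among 2 in YW-WY. No NAC locus and no disease resistance locus was among the members, and the 1 cytochrome P450, LOC_Os11g05380, was tested in YW-WY alone and had no call.

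SNPs of the same locus that disagree, as in the heavy-metal-associated and RPABC1 pairs, were counted over all loci as well. Among loci with at least 2 SNPs of 20 or more reads in each cross, the maternal share ranged over more than 25 points in 25.4% of 59 loci at the chromosome 11 end and 28.6% of 49 at the chromosome 12 end in LR-RL, against 26% over the table, and in 27.1% and 23.9% in YW-WY, against 30.4%. The flanks had 37.3% and 32.3% in LR-RL, and 38.8% and 37.5% in YW-WY. Loci of exactly 2 such SNPs at the chromosome 11 end exceeded that range in 5 of 24 cases in LR-RL and 6 of 26 in YW-WY (20.8% and 23.1%), those at the chromosome 12 end in 2 of 21 and 2 of 19 (9.52% and 10.5%), against 9.28% and 13.3% over the tables.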

How the data were processed

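Allele counts at SNPs between japonica and indica parents were read from the tables the authors deposited, which hold whole-number counts of maternal and paternal reads per SNP, with the replicates of a cross pooled. Per the submitters' processing notes the tools were Trimmomatic 0.32, Bowtie2 2.2.1, SAMtools 0.1.16 and GATK 3.5, and reads that match both copies of a duplication may have been placed on either. The members, lists and pairs were chosen with earlier results of these data known. Counts were summed per locus. Tested loci had 30 or more counts in LR and in RL, or 20 or more in YW and in WY. Bias values add 0.5 to each count. The joint fit used edgeR 4.0.16 in R 4.3.3 on 8 allele columns with terms for cross, parent and strain, an offset for the dosage of 2 to 1, a common dispersion of 0.102 and 2 residual degrees of freedom. With 1 strain term per set, 1 residual degree of freedom was left. DESeq2 1.42.0 was an alternative. Intervals are 95% Wilson intervals, and floors allow 3 counts, both covering counting error only. The named loci are at most 8 per end with a strong strain or a strong parental call, the 10 most read tested pairs, and the 3 loci per end and table with most counts and most SNPs. The tests were checked on simulated data with independent counts per locus. No simulated read counted at 2 SNPs or passed between copies, so these problems of a duplicated segment were not covered.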

Additional observations from a re-analysis of the deposited data

Results flagged for a closer look

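The strain effect of 3 loci of the ends differed between the LR-RL and YW-WY sets by the contrast in edgeR's quasi-likelihood fit with 1 strain term per set, adjusted over all loci tested in both. That fit left 1 residual degree of freedom. Each set had 1 reciprocal pair of pooled crosses, so the p-values do not cover spread between libraries or between cultivars. The difference, LR-RL minus YW-WY on the log2 scale, was 4.46 for LTPL31 at LOC_Os11g03870 (adjusted p 2.85e-11, edgeR). All 4 of its SNPs in YW-WY lay at or under 7.46% maternal in YW, and all 3 of its SNPs in LR-RL at or above 65.7% in LR. The difference was 6.001 for LOC_Os12g04490 (adjusted p 5.86e-15, edgeR). In YW-WY its 11 SNPs ranged between 53.7% and 100% maternal in YW, and 3 neighbouring SNPs, at 1912711, 1912719 and 1912724, had 53.8%, 56.1% and 53.7% in YW with 51.2%, 46.7% and 48.5% in WY. Those 3 had 100% in LR and 2.56%, 2.27% and 0% in RL. At 1912639 the share was 100% in LR and 3.85% in RL, and 81.25% in YW and 21.6% in WY. At 1912310, 1912875 and 1912955, also listed in both sets, it was 100% in LR and YW and 0% in RL and WY, from 13 reads upwards. The difference was 4.55 for LOC_Os12g01680 (adjusted p 0.00038, edgeR), whose SNP at 412973 was listed in LR-RL alone. At 413043, the position both tables list, the maternal share was 6.25% in LR and 100% in RL (53 of 53 reads), and 0.893% in YW and 98.3% in WY, so the sets were far closer there than over the summed SNPs. The sets differ in both parental lines, and the cause was not tested.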

How the results depend on the processing

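No paired analysis was possible because the tables hold the replicates of each cross pooled, and for the same reason no replicate could be left out in turn. Of the single-locus results under the alternatives 861 kept their call or stayed without one, and 23 newly passed. In 28 the call was lost or changed to another kind. A further 4, which had passed, turned their sign. The last were strain biases in YW-WY with the median ratio of each cross as the null, -0.077 for LOC_Os11g02464, -0.046 for LOC_Os11g03794, -0.17 for LOC_Os11g05370 and -0.037 for LOC_Os12g03880. Signs of results that had not passed were not compared, and some turned. With that null the strain bias of LOC_Os12g03880 in LR-RL went from 0.025 to -0.082. That null gave 25 japonica, 20 indica, 4 maternal and 7 paternal calls in YW-WY, against 52, 12, 9 and 4. The most read SNP of each locus gave 0 maternal calls in LR-RL and 7 paternal calls in YW-WY. An end of 2 Mb left 4 maternal and 2 paternal calls in YW-WY. In the joint fit, 1 strain term per set gave 46 japonica, 14 indica, 2 maternal and 9 paternal calls, the fit without YW 16 japonica, 0 maternal and 2 paternal, the median-ratio offset 0 maternal and DESeq2 7 paternal. Calls under these alternatives were counted at the ends only, so no share over all loci stands beside them. The cause was not tested.

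The japonica share of the chromosome 11 end in LR-RL was 51.5% over the first 2 Mb, 51.8% without the most read locus, 52.0% as the median SNP and 52.8% as the median tested locus. That of the chromosome 12 end was 53.2%, 58.7%, 57.1% and 55.1%, and 57.0% over SNPs with at least 50 reads. In YW-WY the chromosome 11 end had 54.5%, 53.5%, 55.4% and 55.9%, and the chromosome 12 end 57.9%, 60.9%, 60.2%, 57.1% and, with at least 50 reads, 61.1%. The maternal share averaged over both crosses was 65.2% at the chromosome 11 end of LR-RL, with 64.7% over the first 2 Mb, 64.4% without the most read locus and 64.8% as the median locus. At the chromosome 12 end it was 62.1%, with 63.2%, 59.7%, 65.4% and, as the median SNP, 65.9%. In YW-WY it was 67.6% at the chromosome 11 end, with 66.7%, 67.3%, 69.1% as the median SNP and 67.9% with at least 50 reads. At the chromosome 12 end it was 63.1%, with 69.4%, 62.5%, 69.5% as the median locus, 67.6% as the median SNP and 62.6% with at least 50 reads.

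Depth limits single SNPs: the 14 reads at 1920428 of LOC_Os12g04510 in WY, all maternal, allow a paternal share of up to 21.4%.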
